A study of Acipenser schrenckii with 5 samples.

Results

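The spleen array of the Amur sturgeon (Acipenser schrenckii) was compared with the arrays of the other 4 tissues of the series, liver, brain, muscle and heart. It is 1 of 5 samples, chosen by the tissue named in its label (the brain sample is labelled "Bain" and was read as brain). All tissues came from 1 untreated fish of 5 months, and the RNA of each was hybridized to 1 single-color (Cy3) µParaflo array. Each array carries 663 probes complementary to mature miRNAs with 5 repeat spots per probe, of which 615 were taken from known fish miRNAs and 48 made for miRNAs found in sturgeon. No strain, genotype or treatment divides the samples. With 1 array per tissue no difference has a replicate check, no p-value was computed, and nothing is known here of the spread between fish.

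miRNAs are short RNAs that bind messenger RNAs and repress them, mainly through bases 2 to 8 from their 5′ end, the seed. The spleen of fish is a blood-rich organ that filters the blood and holds red cells, white cells and, in many species, blood-forming tissue. From work in other vertebrates, miR-144 and miR-451 are made from 1 transcript in red-cell precursors. miR-142 is found in nearly all blood cells and miR-223 mainly in myeloid cells, while miR-150, miR-155 and miR-146 are known from lymphocytes and the immune response.

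The sequences of the miRNAs on which the comparison turns are shown as given for the probes in the scanner output, 5′ to 3′, with the seed in capitals. The prefix of a name is the fish in which the miRNA was described (dre, zebrafish; ola, medaka; ipu, channel catfish; ccr, carp; pol, olive flounder; hhi, Atlantic halibut; tni and fru, pufferfishes). The first set shows the blood-cell miRNAs, both arms where both were bright in spleen.
pol-miR-144-5p: gGAUAUCAucuuauacuguaagu
ola-miR-144: aGGAUAUCaucuuauacuguaa
ccr-miR-144: cUACAGUAuagaugauguacu
pol-miR-144-3p: uACAGUAUagaugauguacuau
dre-miR-451: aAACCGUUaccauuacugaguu
tni-miR-142b: cAUAAAGUagaaagcacuacua
ipu-miR-142: gUAGUGUUuccuacuuuaugga
dre-miR-142a-3p: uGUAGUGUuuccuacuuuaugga
ola-miR-223: uGUCAGUUugucaaauaccc
dre-miR-223: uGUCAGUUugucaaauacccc
dre-miR-155: uUAAUGCUaaucgugauagggg
The second set shows pairs with the same seed and different values in spleen or other tissues, so that the bases in which they differ can be seen.
dre-miR-146b: uGAGAACUgaauuccaagggug
dre-miR-146a: uGAGAACUgaauuccauagaugg
dre-miR-222b: aGCUACAUcugaauacuggguca
dre-miR-222a: aGCUACAUcuggcuacugggucuc
dre-miR-193b: aACUGGCCcgcaaagucccgcu
dre-miR-193a: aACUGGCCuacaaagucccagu
The third set shows the other miRNAs that were high in spleen.
dre-miR-18a: uAAGGUGCaucuagugcagaua
dre-miR-2188-5p: aAGGUCCAaccucacaugucc
dre-miR-1388-3p: aUCUCAGGuucgucagcccaug
ipu-miR-31: uGGCAAGAuguuggcauagcug
dre-miR-181b: aACAUUCAuugcugucgguggg
dre-miR-181c: cACAUUCAuugcugucgguggg
custom sturgeon probe: cAUCGGGAagcucgugucagcc
The last set shows the miRNAs that were low in spleen.
ola-miR-125c: uCCCUGAGacccuaacuugugac
dre-miR-100: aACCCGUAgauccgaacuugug
ipu-miR-99b: aACCCGUAgauccgaucuuguga
dre-let-7c: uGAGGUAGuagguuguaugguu
dre-miR-2184: aACAGUAAgaguuuaugugcu

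Signal below is the spot intensity after background correction and normalization between the arrays, in arbitrary units on a linear scale, averaged over the 5 spots that each probe has on an array, with their SD, which is technical. A probe counted as detected when at least 50% of its spots were above background by over 3 SDs of the spots that hold no probe and the spot CV was under 0.5. By this rule, 333 of the 663 probes were detected in spleen, against 197 in liver, 370 in brain, 431 in muscle and 345 in heart, and 170 were detected in all 5 tissues. Spleen had the dimmest probe spots, with a median density of 92.2 against 112.5 to 167.7 elsewhere. Its empty spots had an SD of 5.9 and those of liver one of 58.5, which rests on outlying spots, since the robust SD was 6.0 in spleen and 13.2 in liver. With the SD as the limit, the lowest detected Signal was 365.6 for liver and 28.0 to 58.2 for the 4 other arrays, so that a dim miRNA could be seen in spleen and missed in liver. With the robust SD liver detected 287 probes down to a Signal of 71.3, against 333 in spleen as before.

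A probe was called spleen-high when it was detected in spleen with a Signal at least 2-fold above each other tissue. A tissue without detection entered at the lowest Signal its array detected, or at its own Signal where that was higher, and the ratio is then a lower bound, written as "at least". The spleen ratio below is the Signal in spleen over that in the brightest of the other 4 tissues. Of the 333 probes detected in spleen, 30 were spleen-high (9.01%), and spleen was the brightest tissue of 84 (25.2%). The median spleen ratio over the 333 probes was 0.511. The 30 probes belong to 14 families and carry 20 seeds, so several of them measure the same or nearly the same miRNA and are not independent. On the spleen array the spots of all 30 lay above every spot of the other 4 arrays. The probes were called on these same spots, so this is no separate check. The ratio exceeded 2 by more than its spot error for 19. The tissue nearest below spleen was liver for 20, heart for 8, muscle for 2 and brain for 0. Over all 333 probes it was liver for 138, brain for 97, muscle for 63 and heart for 35. Of the 30 ratios 11 were lower bounds. Each of the 11 rests on liver, which did not detect the probe and is the nearest tissue there by the rule above. With detection by the robust SD 36 probes were spleen-high, these 30 among them, and 0 of the 30 ratios were bounds. The last probe inside the limit was ola-miR-142 with a ratio of 2.01, and the first outside was hhi-miR-181b with 1.98.

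**Figure D1:**
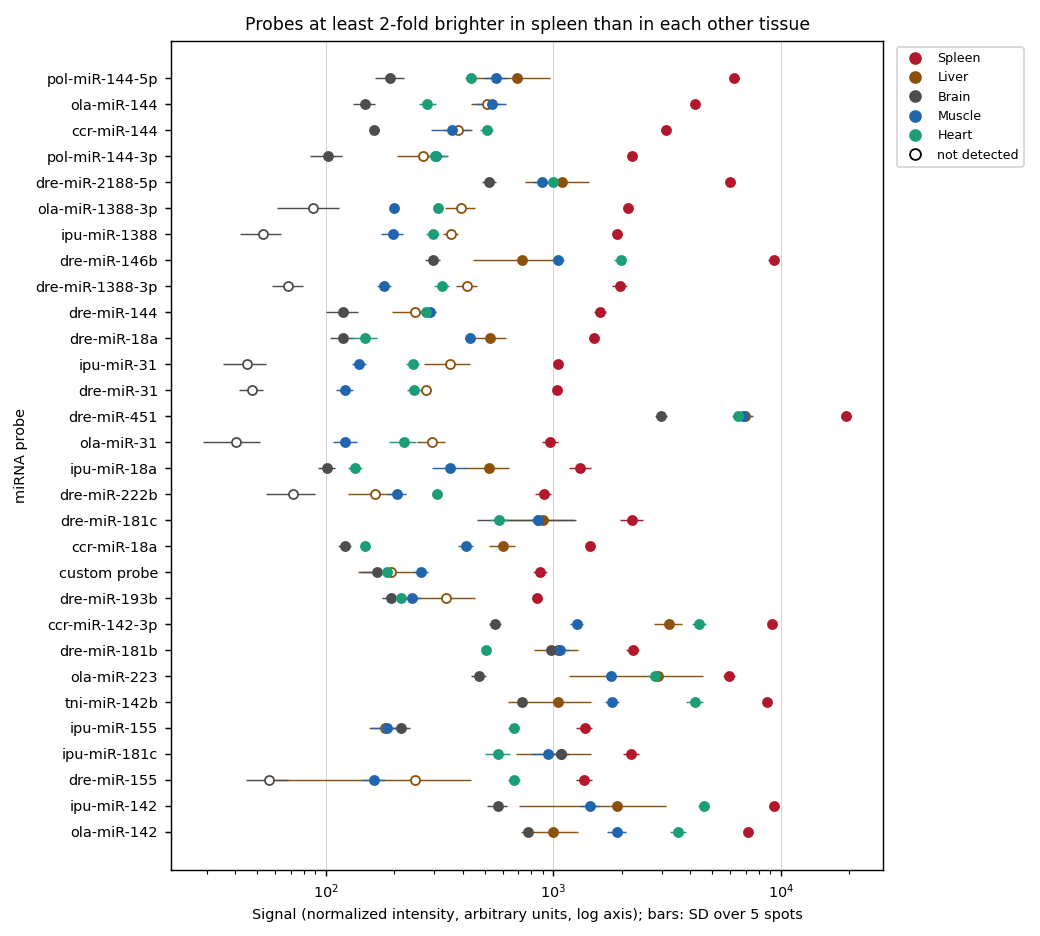
Signal (log axis) of the 30 spleen-high probes in the 5 tissues, in order of the spleen ratio, from 9.04 for pol-miR-144-5p to 2.01 for ola-miR-142. Points are means and bars the SD over 5 spots, hollow points were not detected, and the red spleen point lies to the right of all others in each row, with brain at the left in most.

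With bounds taken at their value, the 4 highest spleen ratios were those of miR-144 probes, of the red-cell list. All 6 probes for miR-144 and miR-451 were detected in spleen and all 6 were spleen-high, against 9.01% of all probes detected in spleen. Their median ratio was 6.12. Spleen remained the brightest tissue for all 6 under each of the 7 alternatives of processing described at the end. For pol-miR-144-5p the Signal was 6245 ± 301 (mean ± SD, 5 spots) in spleen, and 691 ± 273, 561 ± 64.0, 435 ± 26.4 and 192 ± 28.2 in liver, muscle, heart and brain. Its spleen ratio was 9.04 ± 3.59, where most of the error comes from liver, and spleen was 32.5-fold above brain. ola-miR-144, which starts 1 base earlier on the same arm, had Signal 4200 ± 100 in spleen, 535 ± 83.7 in muscle, 280 ± 23.9 in heart and 148 ± 16.6 in brain, and was not detected in liver. Spleen was 7.85 ± 1.24-fold above muscle for this probe. Liver, muscle and heart were thus far below spleen and brain lower still.

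On the other arm spleen was again far above the rest. ccr-miR-144 reached 3141 ± 50.8 in spleen, 6.17-fold above heart, and its ratio to brain was 19.2. pol-miR-144-3p had Signal 2219 ± 86.5 in spleen, 305 ± 40.4 in muscle, 303 ± 37.3 in heart and 102 ± 16.2 in brain. It was not detected in liver, and its spleen ratio was at least 6.07. That of dre-miR-144 was at least 4.38. Brain was the lowest tissue in which either arm was detected, and liver detected only pol-miR-144-5p of the 5 probes. dre-miR-451 was detected in every tissue, with Signal 19347 ± 997 in spleen and between 2979 ± 170 in brain and 6988 ± 490 in liver. Its spleen ratio of 2.77 ± 0.241 was the lowest of the list, and 1.47 with no normalization between arrays. In whole tissue RNA, more cells of a type and more RNA per cell cannot be told apart.

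miR-142, a miRNA of blood cells in general, was brightest in spleen on every probe that detected it there, but closer to heart. Of its 8 probes 6 were detected in spleen and 4 were spleen-high, with ratios from 2.01 to 2.10. ipu-miR-142, of the 3p arm, had Signal 9297 ± 418 in spleen, 4578 ± 236 in heart, 1911 ± 1204 in liver, 1451 ± 143 in muscle and 569 ± 56.8 in brain. tni-miR-142b, of the 5p arm, had Signal 8657 ± 304 in spleen, 4200 ± 370 in heart, 1815 ± 131 in muscle, 1052 ± 419 in liver and 726 ± 28.8 in brain. Both arms had heart as the next tissue, at 2.03 ± 0.139 and 2.06 ± 0.196, whereas the red-cell miR-144 had heart in the range of muscle. dre-miR-142a-5p was just below the limit at 1.94 ± 0.122. dre-miR-142a-3p, which carries 1 more base at the 5′ end than ipu-miR-142, had Signal 1789 ± 127 in spleen and 1287 ± 114 in heart, a ratio of 1.39 ± 0.157. With no normalization between arrays heart was above spleen for all 6, with spleen ratios between 0.585 and 0.990. The probes ccr-miR-142-5p and dre-miR-142b-5p were not detected in spleen.

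For miR-223, a myeloid miRNA, the 2 probes detected in spleen did not give the same ratio. ola-miR-223 had Signal 5929 ± 381 in spleen, 2871 ± 1698 in liver, 2799 ± 195 in heart, 1792 ± 68.1 in muscle and 469 ± 35.3 in brain. Its ratio to liver was 2.07 with an error of 1.23, and its ratio to heart 2.12. dre-miR-223, which has 1 further base at the 3′ end and shares the first 20, had Signal 1369 ± 182 in heart and 1219 ± 129 in spleen, a ratio of 0.891 ± 0.151 that lies within the spread of the spots. Brain was the lowest tissue for both. Without normalization between arrays heart was above spleen for both, with spleen ratios of 0.978 and 0.374. Of the white-cell list, miR-142 and miR-223 together, 8 of 11 probes were detected in spleen. Of the 8, 5 were spleen-high, against 9.01% of all probes detected in spleen, and the median ratio was 2.02. With 1 scaling factor per array, with loess over pairs of arrays or with no normalization, 0 of these probes were spleen-high.

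Among the immune miRNAs, 3 of 7 probes were spleen-high, against 9.01% of all probes detected in spleen, and the median ratio was 1.03. The 3 became 1 with quantile normalization, no normalization, 1 scaling factor per array or loess over pairs of arrays. dre-miR-146b had Signal 9318 ± 504 in spleen, 1974 ± 120 in heart, 1051 ± 64.9 in muscle, 728 ± 286 in liver and 294 ± 22.1 in brain. Spleen was 4.72 ± 0.385-fold above heart and 31.7-fold above brain. dre-miR-146a shares the seed and the first 16 bases with miR-146b, and its Signal was 2927 ± 145 in heart, 2821 ± 104 in spleen, 1041 ± 221 in liver, 742 ± 40.5 in muscle and 450 ± 11.5 in brain. Spleen and heart did not differ beyond the spots for miR-146a, with ratios of 0.964 ± 0.0596 on this probe and 1.03 ± 0.0747 on ola-miR-146a-5p. Of the members of this family, miR-146b was thus high in spleen alone and, with this normalization, miR-146a in spleen and heart alike. With no normalization between arrays spleen was the brightest tissue of 1 of the 7 immune probes, dre-miR-146b, and of neither miR-146a probe. The difference between miR-146b and miR-146a was not tested, for want of replicate arrays.

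miR-155, known from activated lymphocytes and macrophages, had the same 2 tissues at the top. dre-miR-155 had Signal 1370 ± 107 in spleen, 673 ± 42.1 in heart and 163 ± 19.5 in muscle, and was not detected in liver and brain. ipu-miR-155, which holds 2 more bases at the 3′ end, had 1371 ± 110 in spleen and 669 ± 38.6 in heart. The ratios to heart were 2.03 ± 0.204 and 2.05 ± 0.203, and they were 0.861 and 0.849, with heart above spleen, when the arrays were not normalized to each other. miR-150, a miRNA of mature lymphocytes, was higher in heart than in spleen. dre-miR-150 had Signal 4199 ± 170 in heart, 2450 ± 238 in spleen, 883 ± 55.0 in brain and 540 ± 49.2 in muscle, and spleen was at 0.584 ± 0.0613 of heart. ola-miR-150 gave 0.645 ± 0.0491. miR-150 was not detected in liver by either probe.

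Several spleen-high miRNAs are outside the blood-cell lists. dre-miR-2188-5p had Signal 5997 ± 281 in spleen, 1097 ± 342 in liver, 992 ± 58.6 in heart, 893 ± 76.3 in muscle and 521 ± 37.3 in brain. Its spleen ratio was 5.47 ± 1.73, and the other arm, dre-miR-2188-3p, was not detected in any tissue. The 3 probes for the 3p arm of miR-1388 had spleen Signals of 1900 ± 78.0, 1959 ± 143 and 2138 ± 111. In heart they were between 295 and 323, in muscle between 181 and 200, and in liver and brain they were not detected. Their spleen ratios were at least 4.71 to at least 5.44, and the ratios to heart were 6.06 to 6.87. For the 5p arm, dre-miR-1388-5p had 644 ± 61.4 in spleen and 159 ± 52.1 in heart, at least 1.76-fold above each other tissue. That bound rests on liver, where the probe was not detected at Signal 125.

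The 3 probes for miR-31 had Signal 969 ± 77.9 to 1044 ± 38.8 in spleen, 220 to 245 in heart and 121 to 141 in muscle. They were not detected in liver and brain, and their ratios were at least 2.65, at least 2.84 and at least 2.86. On dre-miR-31 the ratio was 1.81 with plain background subtraction, and all 3 probes were below 2 with 1 scaling factor per array. dre-miR-222b had Signal 905 ± 75.6 in spleen, 308 ± 8.13 in heart and 205 ± 18.8 in muscle, and was not detected in liver and brain, a ratio of at least 2.48. With plain background subtraction this ratio was 1.56. It was also below 2 with quantile normalization, no normalization, 1 scaling factor per array and loess over pairs of arrays. dre-miR-222a, with the same seed and the first 11 bases in common, had 1390 ± 120 in spleen, 1045 ± 112 in muscle, 881 ± 270 in liver, 813 ± 23.9 in heart and 688 ± 29.8 in brain. Its ratio to muscle was 1.33 ± 0.182. With the SD as the limit, the b form was detected in 3 of the 5 tissues and the a form in all 5. Since that limit was high in liver, missing detection there does not show that the b form was absent.

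dre-miR-193b had Signal 851 ± 30.7 in spleen and 193 to 240 in brain, heart and muscle, and was not detected in liver, a spleen ratio of at least 2.33. With plain background subtraction this ratio was 1.38, and with 1 scaling factor per array it was also below 2. dre-miR-193a, with the same seed, was highest in heart with 1043 ± 40.8, followed by muscle with 815 ± 28.1 and spleen with 371 ± 22.4. The shorter probe ola-miR-193a was highest in muscle with 1705, followed by heart with 1147, and had 191 in spleen, a spleen ratio of 0.112. Here probes with the same seed had their highest Signal in different tissues, and the probes for miR-193a did not share theirs. Of the 48 custom probes 18 were detected in spleen, against 333 of all 663, and 1 was spleen-high, against 30 of the 333. With 1 scaling factor per array that 1 custom probe was not spleen-high. This probe, the custom sequence with the seed AUCGGGA shown above, had Signal 877 ± 63.6 in spleen, 261 ± 20 in muscle, 185 ± 18.5 in heart and 168 ± 27.3 in brain, with a spleen ratio of at least 2.40. The 17 others had ratios of 0.814 and less, and the lowest ratio, below 0.01, was that of uUAAGACUugcagugauguuuac with 88.9 ± 13.0 in spleen and 15110 ± 987 in heart. That custom probe holds the sequence of dre-miR-499 with 1 more base at the 3′ end.

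The miR-17 to miR-92 cluster and its relatives are known from dividing cells, blood precursors among them. Of the 40 probes 29 were detected in spleen, spleen was the brightest tissue of 22 and 3 were spleen-high, against 25.2% and 9.01% of all probes detected in spleen. The 22 became 8 with no normalization between arrays and 16 to 21 under the other alternatives. The 3 spleen-high probes are all for miR-18a. Of these, 2 stayed spleen-high with plain background subtraction, 1 with quantile normalization and 0 with 1 scaling factor per array. dre-miR-18a had Signal 1508 ± 45.6 in spleen, and 526 ± 91.6, 432 ± 22.5, 148 ± 19.4 and 118 ± 14.3 in liver, muscle, heart and brain, a spleen ratio of 2.87 ± 0.506. ipu-miR-18a and ccr-miR-18a gave 2.50 ± 0.615 and 2.41 ± 0.323. Heart and brain were the low tissues for miR-18a, with spleen 10.2-fold above heart on dre-miR-18a. dre-miR-18b-5p had Signal 114 ± 8.70 in spleen and 85.0 ± 5.27 in muscle and was not detected elsewhere.

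Other members of the cluster varied less between tissues. dre-miR-93 and ccr-miR-93 were 1.75 ± 0.409-fold and 1.86 ± 0.382-fold above liver, but at 0.987 and 0.994 of the highest other tissue with no normalization between arrays. ola-miR-19d had Signal 5831 ± 317 in spleen and 3402 ± 318 in muscle, a ratio of 1.71 ± 0.185, and dre-miR-25 had a ratio of 1.33 ± 0.231. dre-miR-92a was nearly even over the tissues, from 2303 ± 393 in muscle to 2709 ± 138 in brain and 2925 ± 191 in spleen. The median ratio of the list was 1.19.

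miR-181, which is known from developing lymphocytes, had spleen as the brightest tissue on all 11 probes detected there and on 9 to 11 under the alternatives. Of the 11, 3 were spleen-high, and under the alternatives between 0 with no normalization and 6 after quantile normalization. Over all probes detected in spleen, spleen was the brightest tissue of 25.2% and 9.01% were spleen-high. dre-miR-181b had Signal 2232 ± 139 in spleen, 1070 ± 96.7 in muscle, 1051 ± 230 in liver, 981 ± 50.4 in brain and 507 ± 19.1 in heart. Its spleen ratio was 2.09 ± 0.229. dre-miR-181c, which differs in its first base, had Signal 2219 ± 257 in spleen and 902 ± 323 in liver, a ratio of 2.46 ± 0.924. The probes for miR-181a were nearer to brain. ipu-miR-181a had 5543 ± 116 in spleen, 3969 ± 224 in brain, 3363 ± 184 in muscle, 2925 ± 499 in liver and 1856 ± 152 in heart, a ratio of 1.40 ± 0.0841. Heart was the lowest tissue for each of these, in contrast with miR-142 and miR-155, for which it was the next after spleen.

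miR-21, which is found in many immune and dividing cells, was brightest in spleen on 3 of 3 probes detected there, against 25.2% of all. The 3 probes hold 1 sequence at lengths of 21 to 23 bases and are not independent. Spleen was brightest on 2 of 3 with loess over pairs of arrays or with the median over spots. The ratios to liver were 1.14 to 1.46. Their error from the liver spots was large, at 0.80 for ola-miR-21, and the difference lies within it. dre-miR-16b and dre-miR-16a were 1.62 ± 0.0812-fold and 1.57 ± 0.0968-fold above heart, and at 0.790 and 0.759 of it with no normalization between arrays. miR-126, a miRNA of vessel walls, was not high in spleen, with ratios of 0.415 to 0.838 on 5 probes. The fish miRNA miR-462 had Signal 12418 ± 733 in spleen and 12338 ± 1841 in muscle on dre-miR-462. Of the 30 lists examined, those named above as red-cell, white-cell, immune, miR-17 to miR-92, miR-181 and miR-221 with miR-222 held a spleen-high probe, and the remaining lists held 0. The medians of the lists for liver, striated muscle, brain, pancreas, epithelium and skin were between 0.033 and 0.340, and no probe of the sensory list was detected in spleen.

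**Figure D2:**
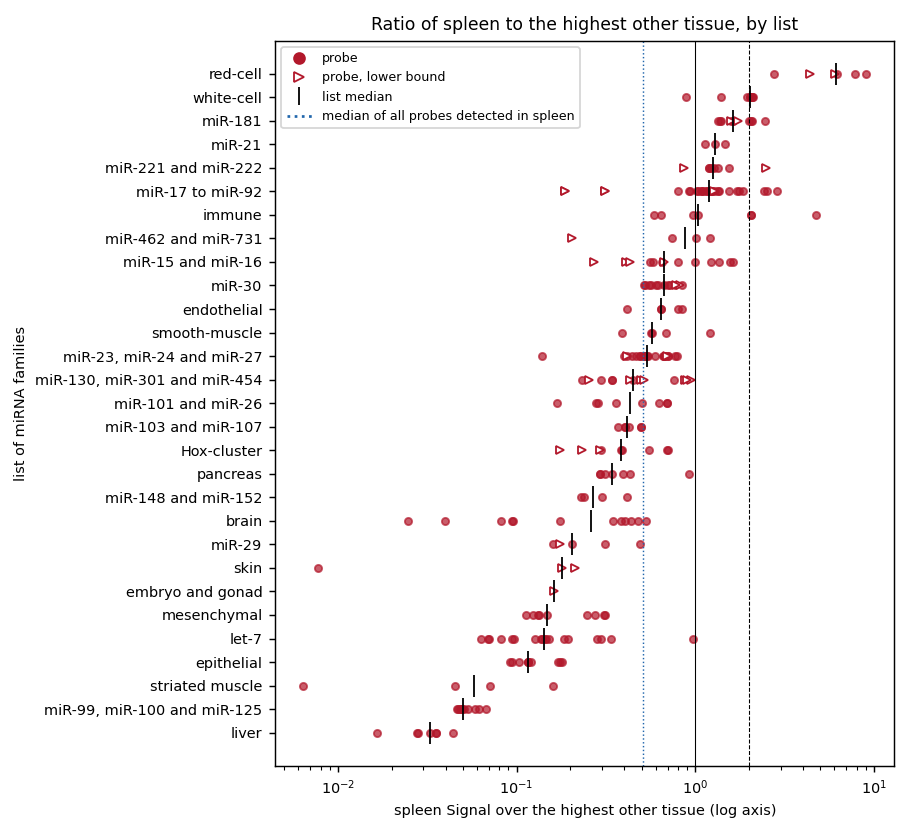
Spleen ratio (log axis), the Signal in spleen over that in the brightest other tissue, for each probe detected in spleen, by list of miRNA families, with the list median as a black bar and lower bounds as hollow triangles. The solid line marks equal Signal, the dashed line 2-fold, and the dotted line the median of 0.511 over all 333 probes. The red-cell list lies highest with a median of 6.12 and the lists for liver and for miR-99, miR-100 and miR-125 lowest with medians of 0.033 and 0.050.

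In the other direction, a probe was called spleen-low when it was detected in each of the other 4 tissues and its spleen Signal was at least 2-fold below each. This held for 10 of the 170 probes tested (5.88%), and spleen was the dimmest tissue of 47 (27.6%). Of the 10, 8 are for miR-125, miR-100 and miR-99, 1 for let-7 and 1 for miR-2184. They carry 4 seeds, so several of them measure nearly the same miRNA and are not independent. All 170 tested probes were detected in spleen, these 10 among them. Brain was the brightest tissue of 9 of the 10, and the share over the 170 was not counted. The spleen spots lay below every other spot for 7 of the 10, and the ratio exceeded 2 by more than its spot error for 5. The last probe inside the limit was dre-miR-2184 with 2.07, and the first outside was a custom probe of the let-7 type (aGAGGUAGuugguuguauaguu) with 1.93.

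miR-125, miR-100, miR-99 and let-7 are encoded together in clusters in vertebrate genomes, and let-7 is known for its rise as cells mature. ola-miR-125c had Signal 909 ± 73.9 in spleen, and 4306 ± 447, 4326 ± 393, 4951 ± 170 and 18521 ± 400 in liver, muscle, heart and brain. The lowest other tissue was 4.74 ± 0.624-fold above spleen and brain 20.4-fold. dre-miR-125b had 811 ± 79.7 in spleen and 3256 ± 346 in liver, 4.02 ± 0.581-fold higher, and dre-miR-125c gave 4.27 ± 0.806. Liver, muscle and heart lay close together, with spleen below and brain above them. dre-miR-125a had 716 ± 47.5 in spleen and 1713 ± 407 in liver, a ratio of 2.39 ± 0.590.

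For miR-100, ola-miR-100 had Signal 715 ± 32.5 in spleen, 2842 ± 288 in muscle, 2931 ± 286 in liver, 4145 ± 167 in heart and 14895 ± 468 in brain. Muscle was 3.98 ± 0.442-fold above spleen. On dre-miR-100 and ccr-miR-100 liver was 2.69 ± 1.32-fold and 2.77 ± 1.17-fold above spleen, errors that come from the liver spots. ipu-miR-99b had 855 ± 78.2 in spleen and 2285 ± 155 in liver, a ratio of 2.67 ± 0.304. The 2 other miR-99 probes detected in spleen, ccr-miR-99 and dre-miR-99, had ratios of 1.62 ± 0.530 and 1.58 ± 0.542 to liver and of 4.05 and 3.81 to the lowest of brain, muscle and heart. All 10 probes of miR-99, miR-100 and miR-125 that were detected in spleen had it as the lowest tissue, with a median of 2.73 for the lowest other tissue over spleen, against 0.591 over the 170 probes tested. All 10 stayed lowest in spleen under 6 of the 7 alternatives, and 7 of 10 with no normalization between arrays, where ccr-miR-99 turned to 0.674, dre-miR-99 to 0.693 and dre-miR-125a to 0.971, and 0 of the 10 were spleen-low.

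**Figure D3:**
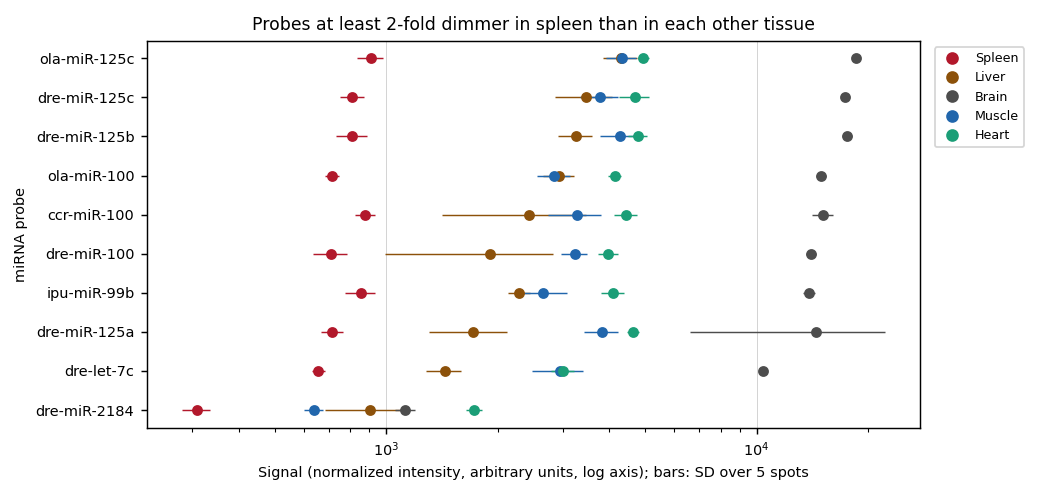
Signal (log axis) of the 10 spleen-low probes in the 5 tissues, in order of the ratio of the lowest other tissue to spleen, from 4.74 for ola-miR-125c to 2.07 for dre-miR-2184. Points are means and bars the SD over 5 spots. Spleen is the point furthest left in each row, and brain the point furthest right in all but the row of dre-miR-2184.

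let-7 was low in spleen on some members only. dre-let-7c had Signal 656 ± 26.4 in spleen, and 1438 ± 155, 2941 ± 462, 2999 ± 220 and 10405 ± 256 in liver, muscle, heart and brain, and liver was 2.19 ± 0.252-fold above spleen, but at 0.901 of it with no normalization between arrays. dre-let-7a had 1946 ± 141 in spleen and 3523 ± 359 in muscle, a ratio of 1.81 ± 0.226, and dre-let-7f had 3818 ± 233 and 4574 ± 346, a ratio of 1.2 ± 0.116. For dre-let-7j spleen was among the bright tissues, with 3640 ± 300 against 3749 ± 174 in brain. For dre-let-7i the lowest tissue was heart with 153 ± 16, against 1416 ± 84.6 in spleen. Of the 20 let-7 probes 18 were detected in spleen, 12 could be tested and 1 was spleen-low, against 10 of all 170 tested. Spleen was the lowest tissue of 9 of the 12, against 27.6% of all tested, and, with no normalization, of 0. dre-miR-2184 had Signal 308 ± 26.1 in spleen, 638 ± 37.4 in muscle, 904 ± 220 in liver, 1124 ± 69.3 in brain and 1732 ± 83.7 in heart.

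Liver detected the fewest probes, and both counts were also taken without it. With 1 tissue fewer to compare, a count can only stay or rise. With liver left out, 52 of the 333 probes were spleen-high (15.6%), and 27 of 296 were spleen-low (9.12%). The tissue next below spleen was then, for the 30 spleen-high probes, heart for 17, muscle for 12 and brain for 1. Among the probes gained on the high side were dre-miR-216a, fru-miR-216a and dre-miR-216b, 14.1-fold to 15.5-fold above the highest of brain, muscle and heart, and dre-miR-217 and ccr-miR-217, at 7.65-fold and 7.26-fold. miR-122, the miRNA of liver cells, was gained as well, with 5.70-fold on ccr-miR-122 and 4.62-fold on dre-miR-122. On the low side, miR-1 and the 3p arm of miR-133, miRNAs of striated muscle that were not detected in spleen, were gained, with dre-miR-1 in brain at least 13.6-fold above spleen. Of the let-7 list, 6 probes were then spleen-low.

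The miRNAs gained on the high side are known from other organs. miR-216 and miR-217 are known from the exocrine pancreas. dre-miR-216a had Signal 2976 ± 218 in spleen, 7533 ± 3614 in liver, 192 ± 12.4 in brain and 123 ± 13.3 in muscle, without detection in heart. dre-miR-216b had 1435 ± 51.9 in spleen and 1568 ± 1122 in liver, and dre-miR-217 had 819 ± 125 and 2410 ± 363. All 7 probes of the pancreas list were detected in spleen, with ratios to liver of 0.292 to 0.915. The Signal summed over the list was 23499 in liver and 9131 in spleen, followed by 1565 in muscle, 715.0 in brain and, with none of the 7 detected, 182 in heart. For miR-375, of pancreatic islets, the spleen Signals were 176 ± 6.73 and 201 ± 10.7, below muscle with 505 ± 25.9 and 515 ± 34.8.

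miR-122 had Signal 845 ± 141 in spleen on ccr-miR-122 and 648 ± 235 on dre-miR-122, against 30344 ± 17299 and 39195 ± 1963 in liver, and 91.3 to 148 in brain and muscle. miR-192 and miR-194, also of liver and gut, were between 173 and 265 in spleen on 5 probes and between 3912 and 9516 in liver. In spleen these were close to muscle, with ratios to the highest of brain, muscle and heart between 0.965 and 1.36. Of 12 probes of the liver list 7 were detected in spleen, against 333 of all 663. The Signal summed over all 12, those not detected included, was 2768 in spleen and 102818 in liver. Markers of striated muscle and nerve cells were mostly not detected in spleen, with 4 of 22 and 12 of 56 probes, against 333 of all 663. miR-206, of striated muscle, was detected in spleen on 2 of its 3 probes. Its highest Signal was 498 in spleen, 562 in liver, 621 in brain, 160 in heart and 7066 in muscle. miR-1 was detected on none of its 4 probes, and miR-133 on 1 of 12. That 1, pol-miR-133-5p, was bright in every tissue, with 20156 ± 1126 in spleen, 12079 ± 756 in heart and 126306 ± 4414 in muscle. No probe for miR-9 or miR-124, of nerve cells, was detected in spleen. The 12 probes of the brain list that were detected there had spleen ratios of 0.0247 to 0.528. The highest spleen Signal of that list was 1249. The part of pancreas or liver RNA in the spleen result was not tested. The Signal summed over the 6 red-cell probes, 5 of them for miR-144, was 36754 in spleen and 9089 in liver. Over the 11 white-cell probes it was 51681 in spleen, 26581 in heart and 12709 in liver. Each sum compares tissues within 1 list. Sums of different lists rest on different probes and cannot be set against each other.

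**Figure D4:**
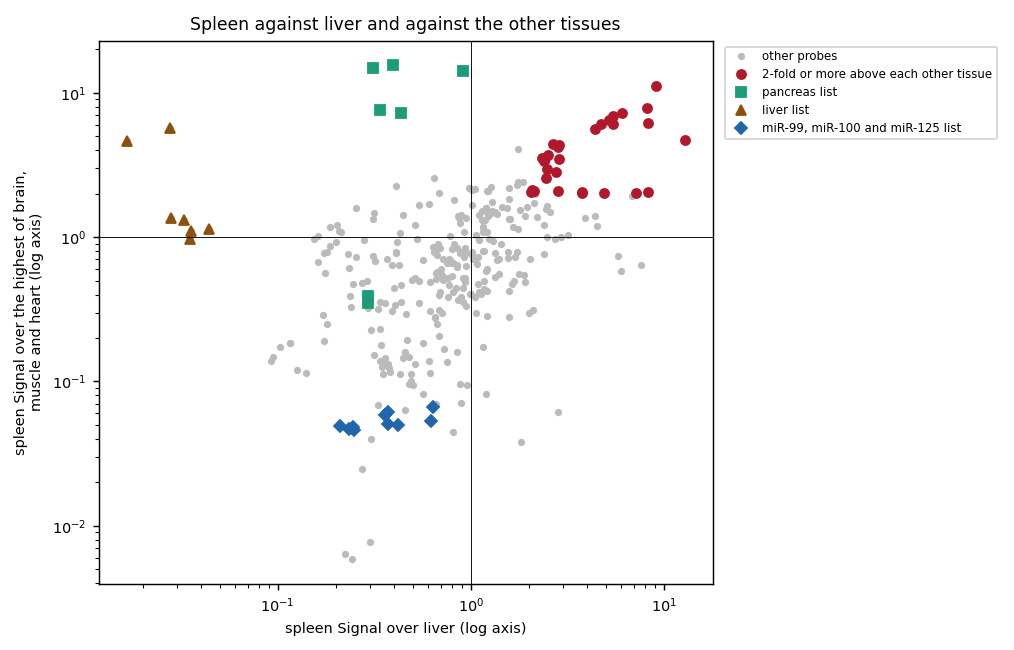
Ratio of spleen Signal to liver (x axis, log) against the ratio to the highest of brain, muscle and heart (y axis, log) for the 333 probes detected in spleen. The 30 spleen-high probes fill the upper right, the miR-216 and miR-217 probes of the pancreas list and the miR-122 probes of the liver list lie at the upper left with liver above spleen, and miR-99, miR-100 and miR-125 lie at the lower left.

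The log2 Signal of spleen was correlated with that of each other tissue across the probes detected in both, a different set for each tissue. Pearson's r was 0.658 with heart over 298 probes, 0.634 with muscle over 327, 0.473 with brain over 283 and 0.423 with liver over 194. These are descriptions across probes, which share arrays and normalization and are not replicates. The set for liver held only probes with a liver Signal of 365.6 or more, so its r is not on a par with the others. Only 3 probes were detected in spleen alone, 2 custom probes and dre-miR-727-5p, with Signals of 56.1 to 92.9. Of the 477 probes detected in at least 1 tissue, 144 were not detected in spleen. This count pools the other tissues, so it cannot be set against the 3. The median GC content of the sequences was 43.5% for the spleen-high probes, 45.5% for the probes detected in spleen and 48.9% for the spleen-low probes.

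The ratios of the spleen-high probes held to different degrees under 7 other ways of correcting the background, normalizing the arrays or averaging the spots. The ratio was at least 2 under all 7 for 9 of the 30 probes, in 4 families. These were pol-miR-144-5p, pol-miR-144-3p, ola-miR-144 and ccr-miR-144, the 3 probes for the 3p arm of miR-1388, dre-miR-146b and dre-miR-2188-5p. Their lowest ratios were between 2.09 for dre-miR-146b and 5.94 for pol-miR-144-5p. Spleen stayed the brightest tissue under all 7 for 23 of the 30, and for the other 7, of miR-142, miR-155 and miR-223, heart was higher when the arrays were not normalized to each other. Over all 333 probes that setting lowered the log2 ratio by a median of 0.49. The lowest ratio of dre-miR-451 was 1.47. Of the 10 spleen-low probes, 6 kept a ratio of 2 under every setting but no normalization, and 0 under that one too. The 6 were ola-miR-125c, dre-miR-125b, dre-miR-125c and the 3 probes for miR-100.

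**Figure D5:**
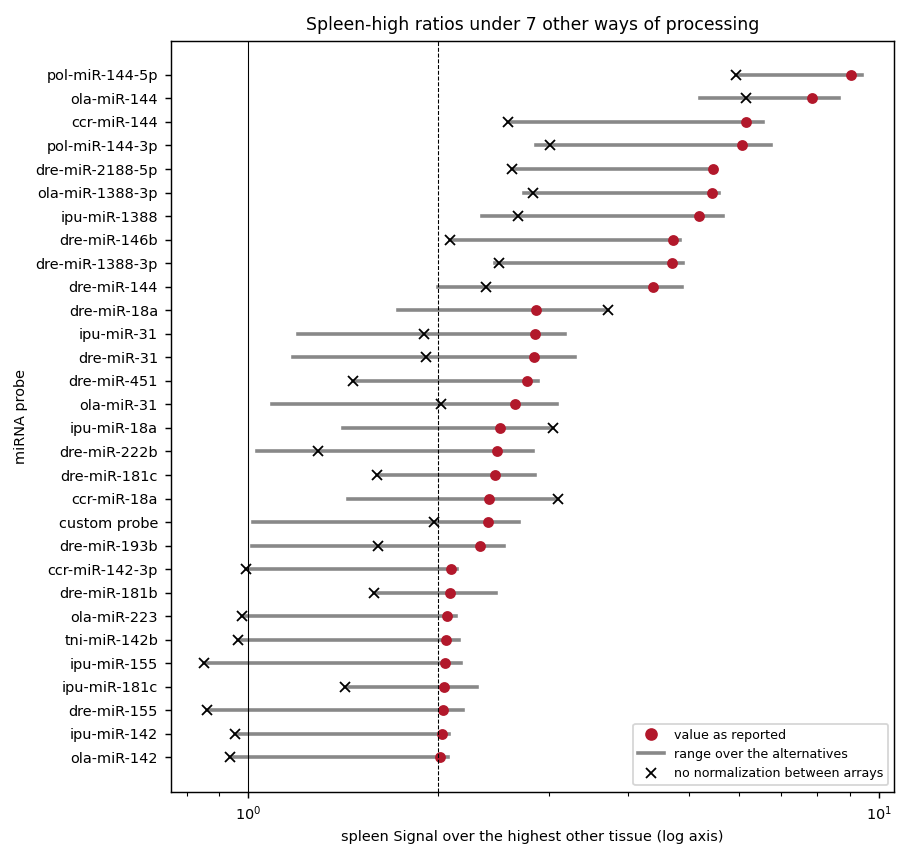
Spleen ratio (log axis) of the 30 spleen-high probes as reported (red) and its range over 7 alternatives (grey), with the value for no normalization between arrays as a cross. The dashed line marks 2-fold and the solid line equal Signal. The ranges of 9 probes stay above 2, and those of 7, for miR-142, miR-155 and miR-223, reach below 1 at the cross.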

How the data were processed

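The authors deposited 1 scanner table per array, whose median spot density is a linear intensity, uncorrected and unnormalized (GenePix scanner, Array-Pro). They also deposited processed intensities of the 663 probes, which per the paper's methods were background subtracted and LOWESS normalized. Matched by name, these did not follow the scanner values (Spearman's rho between -0.0068 and 0.0777), so the table was not used. Its column medians were 22.7 for spleen, 30.4 for liver, 36.6 for heart, 40.1 for brain and 52.3 for muscle.

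The normexp method (offset 50, all spots) of limma 3.58.1 under R 4.3.3 removed the background, as no local background is given, and cyclic loess on the log2 scale (3 iterations) brought the 3315 probe spots of the arrays together. The offset was then taken off and the 5 spots averaged. Other steps used Python 3.11.15, numpy 2.4.6 and pandas 2.3.3. For detection, each spot was set against the median of the 20 empty spots closest to it and the SD of all 361 on the array. The error of a ratio was propagated from the spot SDs. A lower bound holds for this background correction and normalization. Having 1 array a tissue limits the precision.

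The tissue, the lists of families and the tests were chosen with earlier results of these data known. Named were the probes of miR-144, miR-451, miR-142 and miR-223, the probes with the largest ratios in either direction, and members of the lists described above with high or low ratios. The other lists are given only by their count of spleen-high probes and by the ratios in the figure by list. The alternatives were plain subtraction of the empty-spot background, an offset of 16, quantile normalization, no normalization, 1 scaling factor per array, loess over pairs of arrays, the median over spots, other detection limits, folds of 1.5 and 3, a minimum Signal of 500, probes with separate spots, and each other tissue left out. Scripts were tested on simulated data.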

Additional observations from a re-analysis of the deposited data

How the results depend on the processing

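The 30 spleen-high probes became 14 with no normalization between arrays, 11 with 1 scaling factor per array, 17 with cyclic loess over pairs of arrays (chosen after seeing the data) and 10 at 3-fold. With plain background subtraction there were 20. In place of 10 spleen-low probes there were 6 after quantile normalization, 15 with loess over pairs, 9 of the 10 among them, 21 at 1.5-fold and 4 at 3-fold. With no normalization there were 3 other probes (dre-miR-148, dre-miR-454b and ipu-miR-454b) and 0 of the 10. Spleen was the brightest tissue of 41 probes with no normalization. With each other tissue left out in turn, the counts were 31 to 52 spleen-high, 12 to 27 spleen-low and 88 to 121 with spleen brightest. Leaving out a tissue can only keep or raise these counts, so their direction was fixed beforehand. The other alternatives moved these counts by less than 1.5 times, among them the robust SD of the empty spots with 36 spleen-high and 13 spleen-low probes. With no normalization the spleen ratio turned to 0.990 for ccr-miR-142-3p, 0.952 for ipu-miR-142, 0.935 for ola-miR-142, 0.962 for tni-miR-142b, 0.908 for dre-miR-142a-5p, 0.585 for dre-miR-142a-3p, 0.861 for dre-miR-155, 0.849 for ipu-miR-155, 0.978 for ola-miR-223, 0.759 for dre-miR-16a, 0.790 for dre-miR-16b, 0.994 for ccr-miR-93 and 0.987 for dre-miR-93. The lowest other tissue over spleen turned to 0.901 for dre-let-7c and 0.971 for dre-miR-125a. With 1 scaling factor dre-miR-1388-5p turned to 0.737. The cause was not tested. These settings lowered the log2 ratio of all 333 probes by a median of 0.49 with no normalization, 0.40 with 1 scaling factor and 0.20 with plain background subtraction. Of 676 values of named probes under the alternatives, 459 moved by less than the spot error, 201 by more, and 16 turned from above 1 to below it, counting called ratios and those above 1 by more than their spot error. The 459 include settings that leave most ratios as they are. All 52 values stayed within the spot error with brain left out and at a limit of 5 SDs. With no normalization 6 of 52 did, with 1 scaling factor 17, and with quantile normalization or loess over pairs 21 each. The number detected in spleen was 309 at a limit of 5 SDs and 333 with a robust SD. Where the liver array does not detect a probe, there is only a bound. No paired analysis was possible because each tissue has 1 array.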
